A study of Mus musculus with 74 samples.

Results

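Leukaemia inhibitory factor (LIF) keeps mouse embryonic stem (ES) cells undifferentiated in serum, and a set of genes loses its transcripts within days of LIF removal. The genes described here are those that lost them in SunTag cells and whose level stayed low when Nanog was induced without LIF. They were chosen on the means of the deposited normalised counts of 9 Nanog SunTag libraries by 3 thresholds. The mean with LIF and without doxycycline (Dox) was at least 200, the mean without LIF was at most 0.25 of it, and the mean without LIF but with Dox exceeded the mean without either by at most 25%. Of 37620 genes in the table, 9624 reached the level, 362 of these fell at least 4-fold without LIF and are called LIF-dependent below, and 61 of the 362 met the last threshold and are the members. Another 18 of the 362 kept at least 0.75 of their LIF level with Dox alone (called kept), and 283 lay in between.

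The cells are E14Tg2a ES cells (Tg2a) and derivatives, grown in serum with LIF at 10 ng/ml, and polyadenylated RNA was sequenced. In SunTag cells, Dox (1 µg/mL) switches on an inactive Cas9 carrying epitopes that recruit an activator to a guide target. Nanog SunTag cells (clones C1 and C2) carry a guide to the Nanog promoter, and were grown for 3 days with LIF without Dox (3 libraries), with LIF and Dox (2), without either (3) or with Dox alone (3). Nanog/Otx2 SunTag cells (clones C1ON3 and C2ON3, 15 libraries: 3, 4, 4 and 4 in the same order) carry guides to both Nanog and Otx2, so Dox induces both genes there. By the study's methods, a guide to Otx2 was added to C1 and to C2 cells and 1 clone was kept from each, so these lines descend from the clones whose libraries chose the members. 44iN cells lack functional endogenous Nanog and express it from a Dox-dependent transgene. They were always grown with LIF. Cells in Dox, cells 24 h after Dox was taken away and cells long maintained in its absence (labelled LT) gave 2 libraries each. By the study's methods, 44iN cells cultured long-term without Nanog were kept under selection with the drug G418. Tg2a cells in serum and LIF gave 3 libraries. Each SunTag group thus stands for a pair of clones, and nothing in the labels says that libraries of one clone came from separate cultures, so the p-values measure the spread between these libraries.

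LIF binds a receptor of LIFR and IL6ST subunits, whose JAK kinases phosphorylate STAT3. Phosphorylated STAT3 enters the nucleus and activates targets such as Socs3, whose product inhibits the same receptor, so that the pathway restrains itself. NANOG is a homeodomain factor that, when raised, lets ES cells self-renew with little or no LIF, and Esrrb and Klf4 are pluripotency factors placed downstream of NANOG or LIF.

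Inductions were seen in every system. Nanog had a mean normalised count of 5916 ± 3271 (SD, n = 3) in Nanog SunTag cells without LIF and Dox and 51805 ± 5875 (n = 3) with Dox, and 4425 ± 2528 (n = 4) against 39530 ± 7478 (n = 4) in Nanog/Otx2 cells. Otx2 rose with Dox in Nanog/Otx2 cells without LIF by 0.85 ± 0.13 on the log2 scale (edgeR adjusted p = 0.0005659, higher in every Dox library), whereas Nanog SunTag cells had 4239 ± 697 (n = 3) without and 2450 ± 188 (n = 3) with Dox. In 44iN cells Nanog was at 15880 ± 3555 (n = 2) in Dox, 722.5 ± 24.0 (n = 2) after 24 h without and 252 ± 33.6 (n = 2) in the LT libraries. All 7 ES cell markers examined (Pou5f1, Sox2, Sall4, Lin28a, Utf1, Dppa4 and Tdgf1) had a mean of at least 10 in each of the 12 groups. Libraries held 6107512 to 92244655 estimated counts.

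2 promoters are shown because they are the ones, among 35 promoters of the 34 members matched by symbol in RefSeq, whose 250 bases before the start hold the STAT motif TTCNNNGAA (a palindrome, so both strands read alike; capitals mark the match). Coordinates are those of GRCm38.p6, the build of the RefSeq table; the promoter of Socs3 lies at chr11:117969367-117969616 on the minus strand and that of Pros1, the gene of the anticoagulant protein S, at chr16:62854057-62854306 on the plus strand.
Socs3: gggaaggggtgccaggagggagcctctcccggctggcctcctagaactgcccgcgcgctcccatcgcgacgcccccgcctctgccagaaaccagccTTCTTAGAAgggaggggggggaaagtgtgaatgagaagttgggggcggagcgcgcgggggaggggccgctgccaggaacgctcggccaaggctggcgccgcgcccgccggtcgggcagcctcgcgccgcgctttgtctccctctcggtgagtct
Pros1: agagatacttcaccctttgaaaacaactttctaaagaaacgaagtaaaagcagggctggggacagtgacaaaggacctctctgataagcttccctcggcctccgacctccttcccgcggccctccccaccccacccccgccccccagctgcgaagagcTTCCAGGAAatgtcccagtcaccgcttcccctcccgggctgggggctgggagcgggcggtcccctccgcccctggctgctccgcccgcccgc
The match begins 154 bases before the start in Socs3 and 92 bases before it in Pros1. The motif was thus in 5.71% of the members' promoters, against 5.04% of 238 promoters of genes in between and 0 of 14 promoters of kept genes. It was in 5.69% of 8701 promoters of genes that reached the level and 7.02% of all 32851 promoters. The letters TCAAGGTCA (either strand), a site read by ESRRB, were in 0 of the members' promoters, 0 of those in between and 0 of those of kept genes. They were in 0.207% of promoters of genes that reached the level and 0.387% of all. At such shares the members' 0 is not read as a trait of the members. A match describes letters, not a bound site.

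The members were a mixed list. By the mm9 annotation, 49 were protein coding, 11 were pseudogenes and 1 was a miRNA, and pseudogenes made up 18.03% of members against 3.18% of genes in between, 0 of 18 kept genes and 2.32% of the 9624 genes that reached the level. For 20 members at least 20% of the 50-base words of their exons also occur in exons of another gene (27.4% to 100%), so their 65-base reads could be split between copies; they are called members with shared sequence. The other 41, with 10.7% or less, are called members with sequence of their own. This division was made after the values were seen. The first group includes copies of ribosomal protein genes (Gm9493 of Rps7, Gm8430 of Rps27a, Rps25-ps1 of Rps25, Gm14934 of Rpl17, Gm7206 of Rpl9 and Gm5428 of Rpl6) and the interval annotated as mmu-mir-703.

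The miRNA is shown because its values cannot stand for the miRNA itself. RefSeq gives the mature sequence, with the seed (bases 2 to 8) in capitals:
mmu-miR-703: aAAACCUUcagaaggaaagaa
It was found at bases 29 to 49 of the 108-base interval on chromosome 9 (mm9, 78326335 to 78326442, minus strand), and every 50-base word of that interval occurs in exons of Eef1a1, the gene of an abundant translation elongation factor. RefSeq places the miRNA on chromosome 5 of GRCm38.p6.

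For 6 of the 20 members with shared sequence, and for 0 of the 41 others, the value in 1 library with LIF was at least 5 times that of the next. That library was C1-1 each time. mmu-mir-703 had 5596 normalised counts there and was listed at 0 in both others, Gm7206 had 2862 against 73.8 and 78.7, and Gm6565, a copy of Ube2v2, had 584 against 15.1 and 8.74. Gm14934 had 1253 in C1-1 against 48.6 and 59.9 in the other Nanog SunTag libraries of that group, and between 6457 and 11556 in every Nanog/Otx2 library. Without C1-1 the thresholds gave 69 members, of which 50 were among the 61, including 38 of the 41 with sequence of their own.

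The members also lay close to the thresholds in part. Apobec1, a cytidine deaminase gene, fell 4.02-fold, Atp1b2 (a sodium pump subunit) 4.12-fold and Lama1, the laminin chain gene, 4.13-fold, where 4 was needed. Just outside were Fzd10 (3.97-fold), Pim3 (3.86-fold), a kinase gene induced by STAT3, and Syce1 (3.85-fold). For the last threshold, Steap1 (ratio with to without Dox 1.24) and 1190003J15Rik (1.23) were just inside the limit, while Bcl3 (1.26), Chchd10 (1.26) and Gm10166 (1.27) were just outside. The level threshold had Gm10191 (201), Gm6565 (203) and Tuba3b (209) inside and Gm10073 (193), Pla2g5 (186) and Spink3 (179) outside. Taking group medians in place of means gave 60 members, of which 34 were among the 61.

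**Figure D1:**
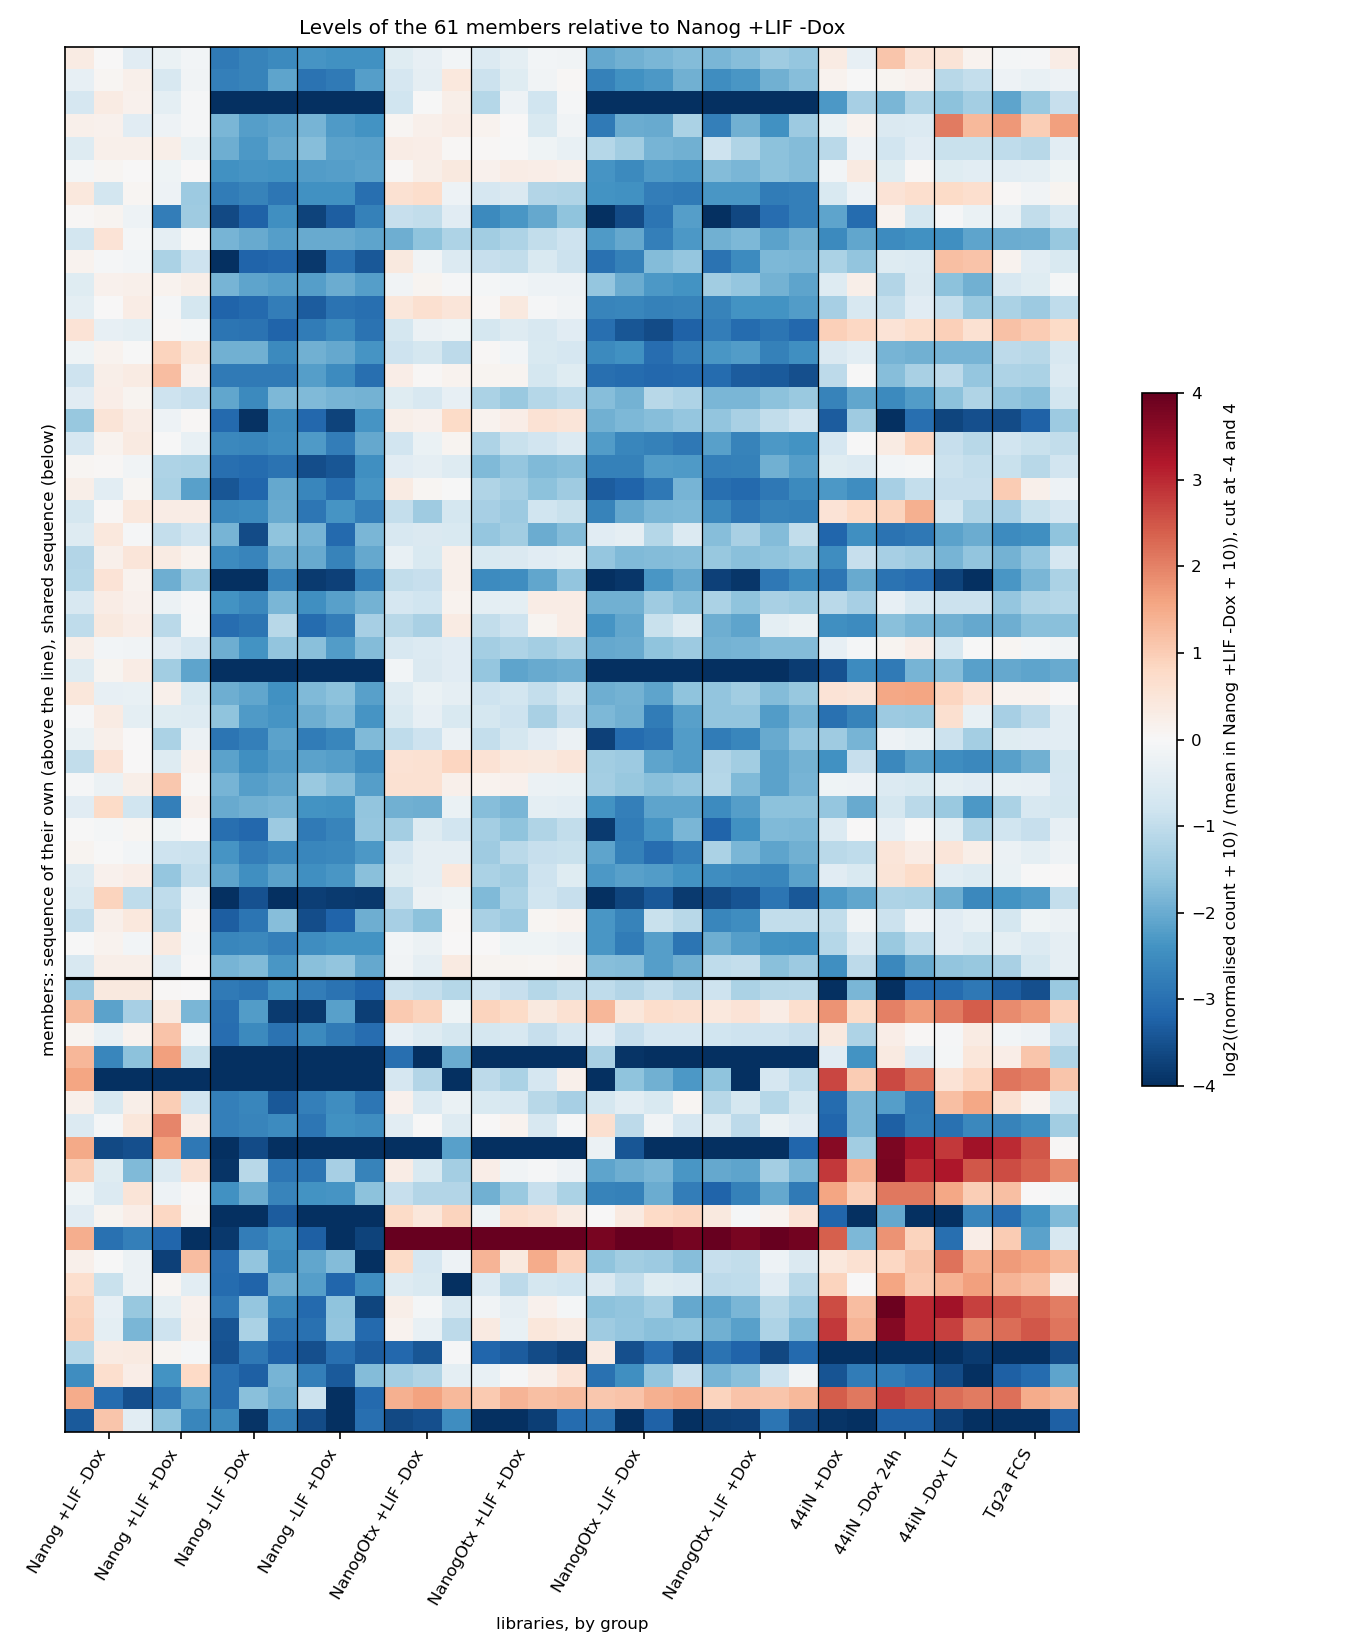
Heat map of the 61 members (rows; those with sequence of their own above the line, those with shared sequence below) in 35 libraries (columns, by group), as the log2 ratio of the normalised count plus 10 to the mean in Nanog +LIF -Dox plus 10, drawn within -4 to 4. Blue blocks in the groups without LIF run through most of the upper 41 rows in both SunTag systems, while many of the lower 20 rows have no such block in Nanog/Otx2 cells.

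The Nanog/Otx2 libraries did not enter the thresholds and show whether the loss of these transcripts without LIF recurred. edgeR's quasi-likelihood test called 43 of the 59 members tested lower without LIF (no Dox) and 0 higher, where 25.2% of all 15609 genes tested were called lower and 24.6% higher. Gm7206 and Gm10191 did not pass the filter on low counts. Of the members with sequence of their own 37 of 41 were lower, and of those with shared sequence 6 of 18. Median log2 fold changes were -2.16 for the former, -0.22 for the latter and -0.01 over all genes tested. Genes in between were lower in 269 of 280 cases (median -2.74) and kept genes in 18 of 18 (median -2.62). In such bulk libraries a loss of transcripts per cell and fewer cells carrying them cannot be told apart.

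Of the LIF pathway itself, Socs3 and Stat3 were among the members lost. In mm9, Socs3 (ENSMUSG00000053113) lies on the minus strand of chromosome 11 from 117827393 to 117831361, Stat3 (ENSMUSG00000004040) on the same strand of that chromosome from 100746412 to 100800854, and Jak3 (ENSMUSG00000031805) on the plus strand of chromosome 8 from 74200195 to 74214474. Socs3, the feedback inhibitor, had 2152, 3734 and 4388 normalised counts in Nanog/Otx2 cells with LIF and 84.2, 71.3, 76.6 and 51.2 without. The lowest library in LIF was thus far above the highest one without, and the difference was -5.59 ± 0.33 on the log2 scale (SE; edgeR adjusted p = 5.92e-09), the largest fall among the members. Stat3, the transcription factor of the pathway, had 2623, 2981 and 3328 with LIF and 489, 431, 523 and 494 without. The libraries of Stat3 within a group lay close together, and the change was -2.65 ± 0.09 (edgeR adjusted p = 5.45e-11). Jak3, a kinase of the JAK family named here after its values were seen, had 671, 695 and 829 with LIF and 164, 158, 96.6 and 86.8 without. Its groups did not overlap either (-2.55 ± 0.24, edgeR adjusted p = 8.25e-07). The kinase genes Jak1 and Jak2, which are on that list, were not members. In these libraries Jak1 had 1292 ± 67.2 (SD, n = 3) with LIF and 1248 ± 67.9 (n = 4) without. Jak2 had 155.9 ± 12.5 (n = 3) and 168.5 ± 71.6 (n = 4). In the Nanog SunTag libraries, which chose the members, Socs3 had 2356, 4719 and 4197 with LIF, 57.0, 81.4 and 49.2 without, and 35.1, 48.0 and 24.4 with Dox alone. Stat3 had there 2386, 2658 and 2581, then 471, 489.9 and 473, then 533, 549 and 565.

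**Figure D2:**
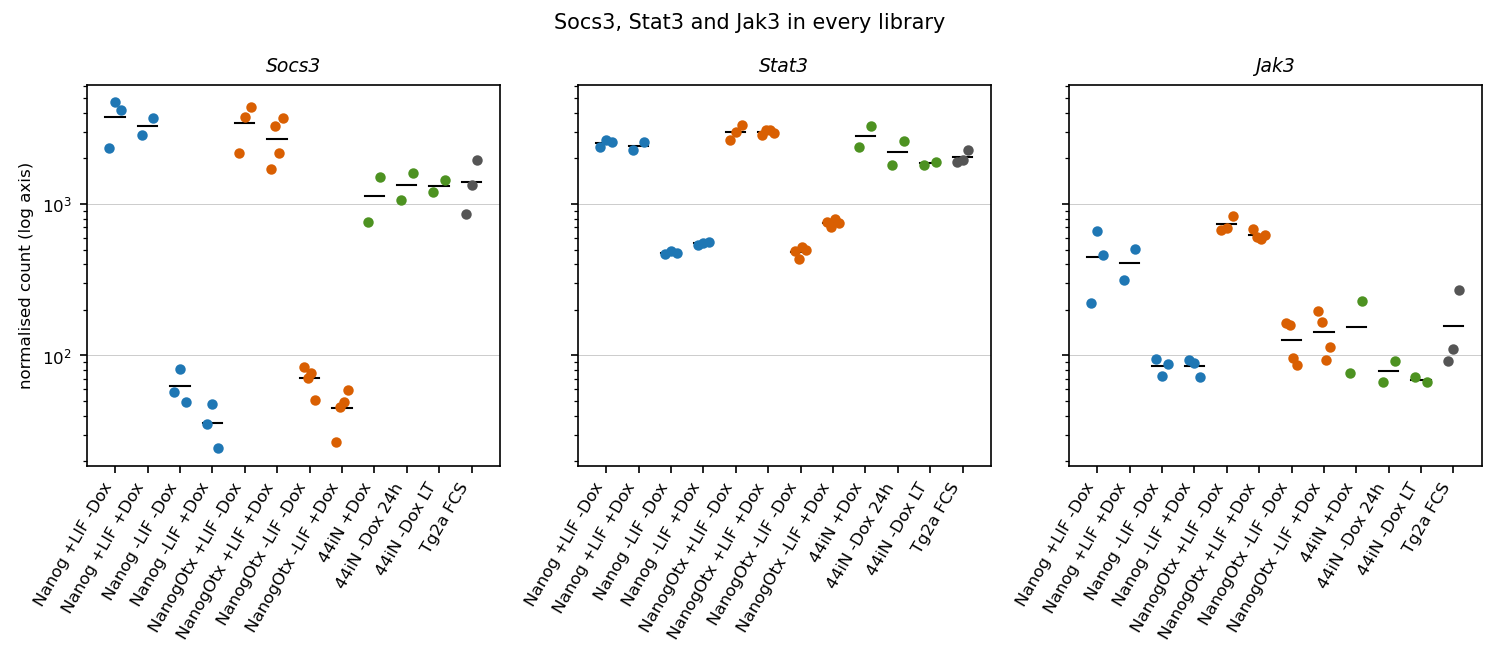
Normalised counts (log axis) of Socs3, Stat3 and Jak3 in every library of 12 groups; points are libraries and bars group means. Socs3 sits between 24.4 and 84.2 in all 14 SunTag libraries without LIF and above 700 in all others, and Stat3 without LIF is slightly higher with Dox in Nanog/Otx2 cells (703 to 801) than without (431 to 523).

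Next to Socs3, members that fell most with a mean above 100 normalised counts were cell surface and membrane genes and 8430410A17Rik. Slc11a1, a metal transporter gene known from phagocytes, had 531, 379 and 412 in LIF and 20.1, 13.2, 15.8 and 14.5 without (-4.77 ± 0.23, edgeR adjusted p = 1.17e-09). Cd37, which encodes a tetraspanin, had 152, 256 and 268 against 9.70, 14.5, 20.0 and 12.2 (-4.04 ± 0.34, edgeR adjusted p = 2.11e-07). Neither gene exceeded 20.1 in any Nanog/Otx2 library without LIF and Dox. Cltb, the clathrin light chain gene, had 2008, 2281 and 2055 against 229, 232, 217 and 224 (-3.26 ± 0.13, edgeR adjusted p = 2.78e-10). In Cltb the libraries within a group differed little beside the gap between groups. 8430410A17Rik (ENSMUSG00000030060), whose symbol in the mm9 annotation names no function, had 3837, 4073 and 2199 against 471, 462, 363 and 346 (-3.08 ± 0.22, edgeR adjusted p = 4.43e-08). The lower LIF value of this gene was the C2ON3 library.

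Among the most abundant members, Gabarapl2, an autophagy gene of the ATG8 family, had 3633, 4068 and 4671 in LIF and 1214, 1326, 1438 and 1520.3 without (-1.62 ± 0.13, edgeR adjusted p = 1.59e-07). That fall was less deep than the 4-fold required in Nanog SunTag cells. Fzd5, a Wnt receptor gene, had 2874, 3585 and 6120 against 695, 855, 932 and 1220 (-2.20 ± 0.28, edgeR adjusted p = 1.37e-05). Lama1 had 3157, 3491 and 3708 against 419, 758, 745 and 1235 (-2.17 ± 0.32, edgeR adjusted p = 5.58e-05). It also belongs to the list of 15 extraembryonic endoderm markers, whose summed level was 12253 to 18503 with LIF and 11583 to 16575 without in these cells; the part of other cells in the fall of Lama1 was not tested. Agtrap, which encodes a protein bound to the angiotensin receptor, fell by 1.79 (SE 0.21, edgeR adjusted p = 6.91e-06) and Pros1 by 3.04 (SE 0.16, edgeR adjusted p = 1.89e-09).

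Not all members repeated the fall. Of those with sequence of their own, Ddit3, a stress-response transcription factor gene, had 498, 524 and 514 in LIF and 566, 617, 351 and 534 without, so its groups overlapped (-0.02 ± 0.21, edgeR adjusted p = 0.951). Cnga3, Rhox13, a homeobox gene of the X-linked Rhox cluster, and Ankrd44 had log2 differences of -0.75 ± 0.66, -0.73 ± 0.60 and -1.17 ± 0.48 (edgeR adjusted p = 0.369, 0.332 and 0.0559). These last 3 stood higher in clone C2ON3 than in C1ON3 in all 4 conditions. Rhox13 without LIF, for example, had 114 and 141 in C1ON3 and 335 and 442 in C2ON3. In all, 11 members were higher and 5 lower in every C2ON3 library than in any C1ON3 library of the same condition. The share of all genes with such an order was not counted, so these counts only describe the members. With LIF and without Dox, C2ON3 had 1 library. Over 12056 genes, deviations from group means in different conditions had a median r of 0.301 within a clone and -0.282 between clones. The clones are thus a second source of spread. With clone and replicate number as a block, 48 members were lower, 40 of them with sequence of their own, where 31.6% of all genes were. Among members with shared sequence, the Rps7 copy Gm9493 had 6992, 6183 and 5374 in LIF and 6484, 4651, 5534 and 5509 without (-0.19 ± 0.11, edgeR adjusted p = 0.155).

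On the means of these libraries, 52 of the 61 members reached a mean of 200 in LIF. Of these, 25, all with sequence of their own, were at 0.25 of it or less without LIF, and 16 met all 3 thresholds. Of the 283 genes in between, 181 passed the first 2 thresholds and 21 met all 3. Of the 18 kept genes, 14 passed the first 2 and 0 met all 3. The first 2 thresholds were thus passed by 25 of 41 members with sequence of their own and by 0 of 20 with shared sequence. Members repeated the 4-fold fall less often than the other LIF-dependent genes mostly through those with shared sequence. The share of members with sequence of their own was close to that of genes in between and below that of kept genes. The median fold fall was 4.30 for members with sequence of their own, 1.14 for those with shared sequence, 6.53 for genes in between and 6.03 for kept genes.

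The question of whether induced Nanog keeps these genes up without LIF was then put to the same libraries, in which Dox also induces Otx2. Dox without LIF raised 5 of the 59 members and lowered 1, where 11.2% of all genes tested were higher and 6.15% lower. The share of members higher was 8.47%, below that background, but the order was reversed with clone and replicate as a block, where 16 members were higher (27.1%, against 18.9% of all genes) and 2 lower (against 14.5%). With clone alone as a term 11 members were higher (18.6%, against 17.4%). Genes in between were higher in 181 of 280 cases and kept genes in 18 of 18. The median log2 change was 0.28 for members with sequence of their own, -0.14 for those with shared sequence, 0.99 in between and 2.10 for kept genes. The position of these groups was chosen from Dox ratios in Nanog SunTag cells, and here it is the same ratio in libraries that took no part in that choice. Without the -LIF -Dox library C2ON3-1, or without the -LIF +Dox library C2ON3-2, 3 members were higher (against 8.26% and 9.90% of all genes), and 2 were lower without the +LIF -Dox library C1ON3-2 or the -LIF -Dox library C1ON3-1.

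**Figure D3:**
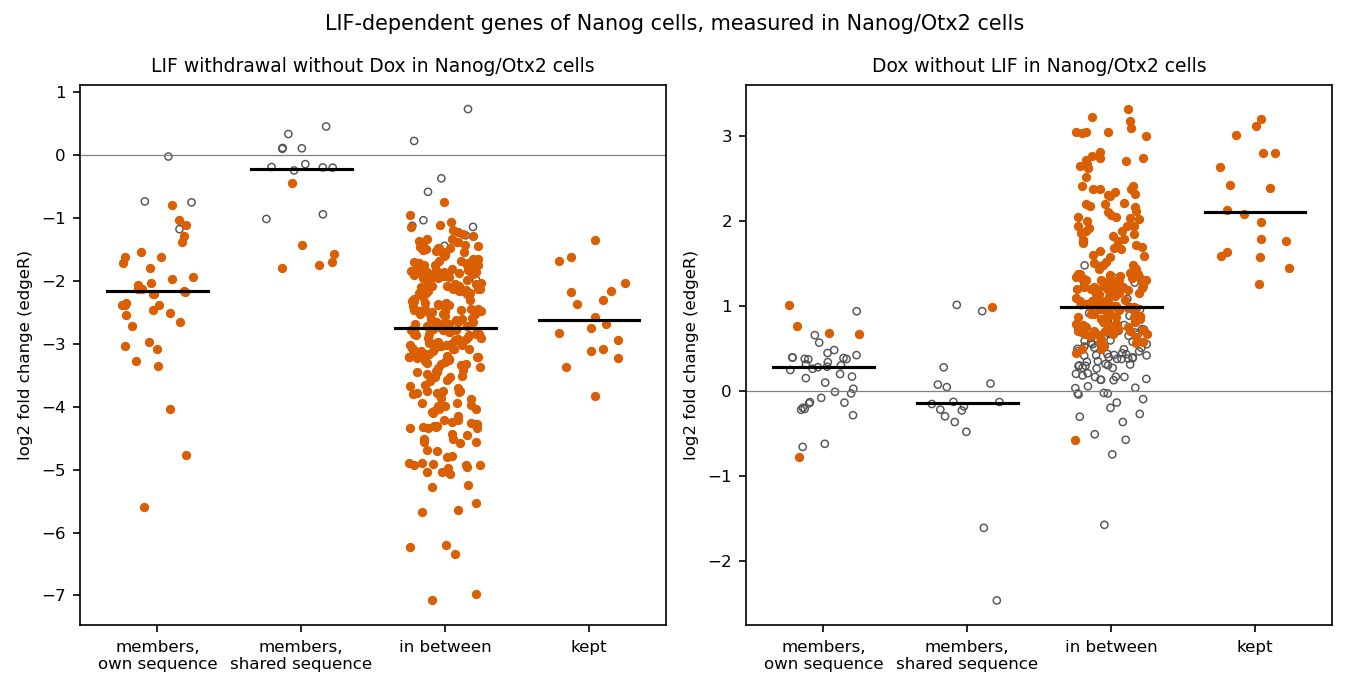
Log2 fold changes (edgeR) in Nanog/Otx2 cells for LIF withdrawal without Dox (left) and Dox without LIF (right), for members with sequence of their own, members with shared sequence, genes in between and kept genes; filled points are called, open points are not, and bars are medians. In the right panel medians step from 0.28 in members with sequence of their own to 0.99 in between and 2.10 in kept genes, while in the left panel only members with shared sequence lie near 0 (median -0.22).

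Socs3 without LIF had 27.02, 45.5, 49.5 and 59.2 normalised counts with Dox, against 84.2, 71.3, 76.6 and 51.2 without (-0.62 ± 0.33, edgeR adjusted p = 0.22). The ranges of Socs3 overlapped, and all 8 libraries stayed far below the lowest LIF library, at 1696. Stat3 had 759, 703, 801 and 749.7 with Dox against 489, 431, 523 and 494 without. The groups of Stat3 did not overlap, and it rose by 0.67 ± 0.08 (edgeR adjusted p = 5.49e-05), still far below the 2623 to 3328 of LIF. Jak3 had 196, 166, 93.9 and 114 with Dox and 164, 158, 96.6 and 86.8 without (0.20 ± 0.23, edgeR adjusted p = 0.608).

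The other members called higher were Spsb1, a SOCS box gene (0.77 ± 0.21, edgeR adjusted p = 0.0208), Isoc2a (0.68 ± 0.18, adjusted p = 0.0181), Gm8038, which shares 98.3% of its words with other genes (0.99 ± 0.31, adjusted p = 0.0373), and Pnpla3, an enzyme of lipid droplets (1.01 ± 0.25, adjusted p = 0.0133). Pnpla3 had 130, 85.2, 68.5 and 78.9 with Dox against 68.2, 41.0, 30.8 and 40.1 without. Every Dox library of Pnpla3 was above every library without, by little. Ddit3 was lower with Dox, at 236, 318, 227 and 395 against 566, 617, 351 and 534 (-0.77 ± 0.20, edgeR adjusted p = 0.0148), with 1 Dox library inside the other range. Gabarapl2 had 1419, 1542, 1895 and 1745 against 1214, 1326, 1438 and 1520.3 and was not called (edgeR adjusted p = 0.104; with the block it was called higher).

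For scale, Esrrb, a gene in between, had a mean of 658 ± 73.9 (n = 4) without LIF and Dox and 5259 ± 428 (n = 4) with Dox (3.03 ± 0.10, edgeR adjusted p = 7.462e-11), and Klf4 122 ± 41.1 (n = 4) and 484 ± 122 (n = 4) (2.04 ± 0.25, adjusted p = 6.427e-05). Neither gene had a Dox library as low as its highest library without.

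Withdrawing LIF in the presence of Dox gave similar counts. 40 of 59 were lower and 0 higher, against 17.9% lower and 18.7% higher over all genes tested, with 35 of the 40 having sequence of their own. The log2 changes were -5.89 ± 0.33 for Socs3 (edgeR adjusted p = 1.31e-08), -2.66 ± 0.31 for Cd37 (adjusted p = 1.24e-05), -2.63 ± 0.21 for Slc11a1 (adjusted p = 4.06e-07), -2.55 ± 0.12 for Cltb (adjusted p = 7.34e-09) and -2.47 ± 0.15 for Pros1 (adjusted p = 2.72e-08). The median was -1.53 for members with sequence of their own, -1.34 in between, and -0.61 for kept genes, of which 10 of 18 were lower. This contrast and the one without Dox share no libraries.

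Genes listed with the LIF pathway, outside the members, split in their response to Dox without LIF. Of the 34 genes listed for the receptor, JAK-STAT3 signalling and feedback, 2 were members (Socs3 and Stat3), 5 lay in between and 1 was kept. The list also includes the genes Klf4, Klf5, Tfcp2l1, Gbx2 and Myc, which are not parts of the receptor or its JAK-STAT3 signalling. Of 33 tested, LIF withdrawal lowered 20 and raised 2, against 25.2% and 24.6% of all genes tested. Dox without LIF raised 11 and lowered 1, against 11.2% and 6.15%. Bcl3, an IκB-family gene induced by STAT3, fell by 4.93 (SE 0.23, edgeR adjusted p = 8.76e-10) without LIF and had a Dox difference of 0.27 ± 0.24 (edgeR adjusted p = 0.481). Pim3 fell by 1.46 (SE 0.10, edgeR adjusted p = 2.73e-08) with a Dox difference of -0.11 ± 0.09 (adjusted p = 0.462), and Junb fell by 2.16 (SE 0.37, adjusted p = 0.000206) with one of 0.06 ± 0.35 (adjusted p = 0.936). On the other side Lifr, the LIF receptor gene, rose with Dox by 1.71 ± 0.18 (edgeR adjusted p = 1.86e-05), Tfcp2l1 by 2.10 ± 0.29 (adjusted p = 0.000212) and Klf5 by 2.79 ± 0.16 (adjusted p = 5.68e-08), these last being pluripotency factors.

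None of 36 naive pluripotency genes was a member, while 22 lay in between and 3 were kept. There were also 0 members among the lists for primed epiblast, glycolysis, amino acid metabolism, secreted ligands and receptors, and interferon and antigen presentation. Only LIF-dependent genes could be members, and 61 of all 362 were. The primed epiblast and interferon lists held 0 such genes, so their 0 followed from the thresholds. Glycolysis had 2 genes in between and 0 kept, amino acid metabolism 1 and 1, and secreted ligands and receptors 5 and 1. With so few genes, these 0 counts are not read as a trait of the members. The lists for lipid metabolism (39 genes), redox and detoxification (40), cytoskeleton and adhesion (39), and germline and 2-cell-like genes (41) each held 1: Apobec1, Cyp2s1 (a cytochrome P450 gene), Lama1 and Rhox13.

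With LIF present, Dox lowered 13 of the 59 members tested and raised 2, against backgrounds of 10.0% lower and 12.9% higher. The share lower, 22.0%, was close to that of genes in between (21.8%, 61 of 280). The block gave 18 lower and 5 higher, against 19.7% and 21.3% of all genes. Without the +LIF +Dox library C2ON3-1 the count lower was 7 (against 6.14%), and without the +LIF -Dox library C1ON3-2 the count higher was 0; the 2 called higher went to 1 without any of 7 other libraries (3 with LIF and Dox: C1ON3-1, C1ON3-2 and C2ON3-1; 3 with Dox alone: C1ON3-1, C1ON3-2 and C2ON3-2; and -LIF -Dox C2ON3-2). The calls of Tgfbi and Dpp4 were each lost without any 1 of 6 of the 7 libraries compared. Tgfbi, a secreted matrix protein gene, had 350.1, 368 and 819 without Dox and 114, 118, 157 and 231 with it (-1.65 ± 0.53, edgeR adjusted p = 0.0366). Slc11a1 had 531, 379 and 412 without and 187, 124, 133 and 140.4 with Dox (-1.58 ± 0.20, edgeR adjusted p = 0.000164). Ephx2, the soluble epoxide hydrolase gene, had 1164, 975 and 917 without and 396, 357, 290.2 and 336 with (-1.55 ± 0.28, edgeR adjusted p = 0.00163). In these 3 genes every Dox library was below every library without Dox.

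Dpp4, a surface dipeptidase gene, had 1189, 1121 and 1657 without Dox and 373, 436, 539 and 734 with it (-1.31 ± 0.41, edgeR adjusted p = 0.0312). 8430410A17Rik had 3837, 4073 and 2199 without and 1569, 1685, 1121 and 1095 with Dox (-1.30 ± 0.21, edgeR adjusted p = 0.000743). Slc47a1, a multidrug and toxin extruder gene, had 675, 719 and 653 without and 265, 308, 265 and 279 with Dox (-1.28 ± 0.19, edgeR adjusted p = 0.000452). In these 3 genes, too, the groups did not overlap. Also lower were Ddit3, Elk3, Apobec1, Mmp11, Gm14494, Cltb and Steap1, by 0.42 to 1.05 on the log2 scale, and higher were Prr13 (0.56 ± 0.19, edgeR adjusted p = 0.047) and Gm8038 (1.03 ± 0.32, adjusted p = 0.033). Socs3 and Stat3 had differences of -0.32 ± 0.27 and 0.03 ± 0.08 (edgeR adjusted p = 0.424 and 0.866).

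The effect of Dox therefore depended on LIF for some members. The difference between the Dox effect with LIF and that without was called for 9 members, all lower with LIF, against 5.15% of genes lower and 4.55% higher. They were Slc11a1 (-2.15 ± 0.31, edgeR adjusted p = 0.000644), Pnpla3 (-1.63 ± 0.36, adjusted p = 0.0106), Slc47a1 (-1.43 ± 0.27, adjusted p = 0.00377), Ephx2 (-1.42 ± 0.40, adjusted p = 0.0354), 8430410A17Rik (-1.40 ± 0.29, adjusted p = 0.00713), Steap1 (-0.82 ± 0.19, adjusted p = 0.0146), Apobec1, Cltb and Stat3. The block gave 19, against 11.1% of all genes lower, and there were 5 without the +LIF -Dox library C1ON3-2, against 3.28%. The call of Ephx2 was lost in 10 of 15 fits with 1 library omitted. Genes in between were called lower in 160 of 280 cases and kept genes in 17 of 18. The 2 patterns differ in kind: Stat3 rose with Dox without LIF and did not differ with it, whereas Ephx2, Slc47a1 and 8430410A17Rik were lower with Dox in LIF and had differences of -0.13 to 0.15 without.

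**Figure D4:**
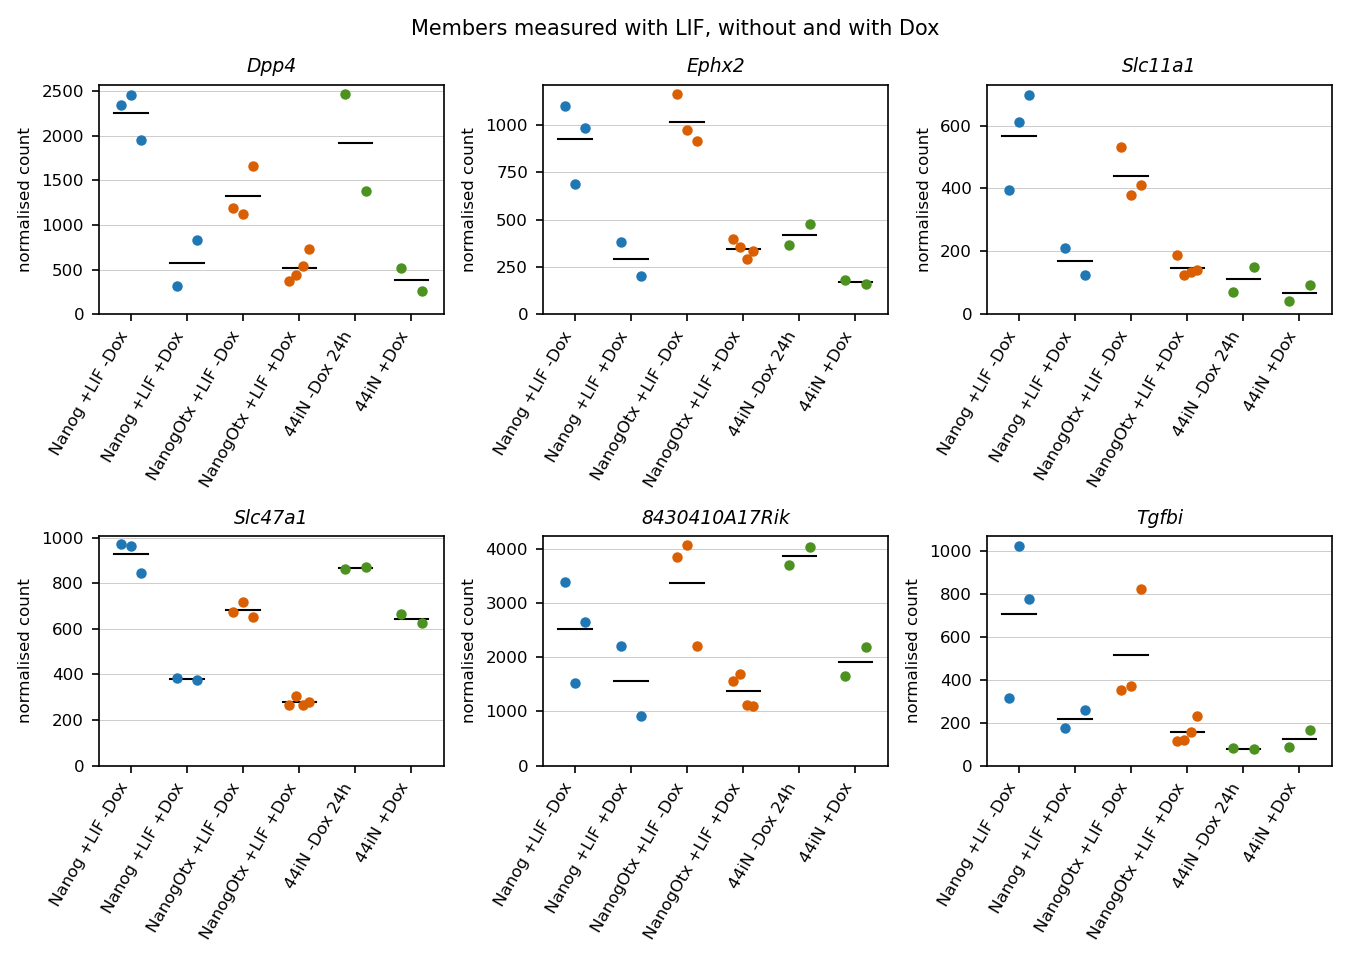
Normalised counts (linear axes from 0) of Dpp4, Ephx2, Slc11a1, Slc47a1, 8430410A17Rik and Tgfbi in LIF, without and with Dox, in Nanog SunTag, Nanog/Otx2 SunTag and 44iN cells; points are libraries and bars group means. Dox libraries lie below libraries without Dox in both SunTag systems except for 8430410A17Rik in Nanog SunTag cells, and in 44iN cells for Dpp4, Ephx2, Slc47a1 and 8430410A17Rik.

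Nanog SunTag cells with LIF and Dox were not used by the thresholds, but their control libraries were, so their values are given without a test. Dpp4 had 321 and 835 there, against 2343, 2456 and 1955 without Dox. Ephx2 had 380.5 and 199 against 1101, 689 and 983, and Slc47a1 had 384 and 377 against 972, 964 and 846. Socs3 had 2844 and 3668, within the 2356 to 4719 of the controls, and Stat3 had 2266 and 2545 against 2386 to 2658.

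44iN cells ask the same question from the other side, by comparing cells that express transgenic Nanog with cells 24 h after Dox removal, all in LIF. edgeR called 0 of 14376 genes (0% lower and 0% higher), and hence 0 of the 60 members tested. Nanog itself was not called, at 4.56 ± 0.30 (edgeR adjusted p = 0.09021), so the absence of calls does not show an absence of large changes. At an unadjusted p under 0.05 there were 1023 genes, among them 14 members, and DESeq2 called 1 member lower and 1 higher, against 0.195% and 0.786% of all genes. Without Dox replicate 1 edgeR called 21 members lower and 9 higher, against 9.41% and 13.2% of all genes. Without Dox replicate 2 it called 6 and 2, against 0.611% and 1.86%, and without 24 h replicate 2 it called 1 lower, against 0.291%. In these fits the group left with 1 library was assumed to vary like the other. Values are therefore described only. Dpp4 had 514 and 257 in Dox and 2462 and 1381 after removal. Ephx2 had 179 and 159 against 365 and 476, Pnpla3 149.6 and 157 against 463 and 402, and Steap1 776 and 742 against 1550.2 and 1585. Prr13 went the other way, with 841 and 919 in Dox and 336 and 322 after removal. Socs3 (762 and 1501 against 1058 and 1606) and Stat3 (2378 and 3253 against 1812 and 2603) overlapped between these groups.

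In 10 of the 58 members tested in both systems, every Dox library was below every library without Dox in LIF, both in Nanog/Otx2 and in 44iN cells. All 10 had sequence of their own: 8430410A17Rik, Dpp4, Rpl39l, Slc47a1, Ephx2, Apobec1, Steap1, Cyp2s1, Pnpla3 and Elk3. Over all 13750 genes tested in both, 6.91% behaved so, and among genes in between 37 of 279 did. The opposite order was seen in 1 member, Prr13, and in 5.06% of all genes. In Nanog/Otx2 cells Otx2 was also induced, while in 44iN cells Otx2 was 194.5 ± 33.2 (n = 2) in Dox and 1574 ± 275 (n = 2) after removal, so the systems differ in it.

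Long-term 44iN cells without Nanog were compared with Tg2a cells, which express it, both in serum and LIF. The LT cells were also under G418 selection, which the methods do not state for Tg2a cells. Effects of the drug and of Nanog loss cannot be told apart here. 6 of 59 members were lower and 2 higher, against backgrounds of 5.26% and 3.35%. Tgfbi had 45.1 and 32.7 in LT cells and 132, 192 and 285 in Tg2a cells (-2.45 ± 0.40, edgeR adjusted p = 0.0127). Parvb, a focal adhesion gene, had 519 and 419.5 against 1031, 1167 and 1556 (-1.49 ± 0.22, edgeR adjusted p = 0.009), and Ephx2 had 481 and 484 against 1876, 1062 and 795 (-1.45 ± 0.34, edgeR adjusted p = 0.039). All 3 were lower in both LT libraries than in any Tg2a library. The others lower were Prr13 (-1.03 ± 0.21, adjusted p = 0.0247), Fzd5 (-0.87 ± 0.14, adjusted p = 0.0123) and the mmu-mir-703 interval (-1.20 ± 0.30, adjusted p = 0.0481).

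Rpl39l, a paralogue of a ribosomal protein gene, had 3986 and 3866 in LT cells against 1905.5, 1279.96 and 1123 in Tg2a (1.37 ± 0.22, edgeR adjusted p = 0.0124). 8430410A17Rik had 4324 and 4059 against 2592, 2269 and 2710 (0.66 ± 0.14, edgeR adjusted p = 0.0285). Both stood higher in LT cells in each library. Single libraries decided these counts: 0 members were called without LT replicate 1 (0.0989% of all genes lower and 0.0264% higher) or LT replicate 2 (0.104% and 0.123%), and 2 lower and 0 higher without Tg2a replicate 2 (1.17% and 0.664%). The counts higher were 4 without Tg2a replicate 1, against 5.21% of all genes, and 5 without Tg2a replicate 3, against 7.64%. Socs3 had 1203 and 1443 in LT cells and 854, 1340 and 1963 in Tg2a, and Stat3 1811 and 1902 against 1891, 1950 and 2276, so that neither set of groups separated.

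Several members with shared sequence had other levels in these cells than in SunTag cells. Gm5662, Gm2022 and Gm8300, each of which shares words with 14 other genes, ranged from 591 to 8536 in the 4 44iN libraries with or 24 h without Dox and from 45.5 to 744 in Nanog/Otx2 cells. The summed level of the 2-cell-like markers in the files (Zscan4 and related genes, 4 of 6 listed) was 7634 to 21646 in the former and 740 to 3219 in the latter. It was 10486 to 17832 in Tg2a cells, where Gm5662 had 3758, 3133 and 2293. The part of 2-cell-like cells in these levels was not tested.

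In the Nanog SunTag libraries themselves edgeR called 21.3% of genes lower without LIF and 3.60% higher with Dox without LIF. These contrasts fixed the members, so no count of members in them is a result.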

How the data were processed

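RNA from 35 libraries was sequenced by the authors (stranded poly(A) kit, 65-base single-end reads), and reads were aligned with STAR to mm9 and quantified with RSEM; versions of these tools were not given in the sources used here. The deposited values were RSEM estimated counts per gene and the same counts divided by DESeq2 size factors over the 35 libraries (a signal in normalised counts, as deposited). Serum-free 2i cultures and chromatin data were not analysed here.

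Members, comparison groups, gene lists and tests were chosen with earlier results of these data known. The members rest on deposited normalised counts. The tests used estimated counts rounded to whole numbers in edgeR 4.0.16 (R 4.3.3): TMM, quasi-likelihood test, Benjamini-Hochberg adjustment over all genes tested, threshold 0.05, two-sided, keeping a gene where all libraries of 1 condition or more had 10 normalised counts. Fold changes are log2 with standard errors. Nanog/Otx2 cells were fitted with LIF, Dox and their interaction, and 44iN and Tg2a cells were fitted pairwise. The fit was tested on simulated data. Genes were named if they were among the 12 most abundant members, among up to 6 largest non-overlapping called changes per direction and comparison (higher mean at least 100), on a gene list, nearest to a threshold, or a reference gene; others are said to be chosen after their values were seen, as were the 20% division by shared sequence, the 5-fold rule for single libraries, the clone comparison and the count over both Nanog systems. Other members are named only as part of a count, and some named by this rule are not reported here.

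In Nanog/Otx2 cells, libraries of the same clone and replicate number deviated together (median r 0.375, 0.181 to 0.637 in 21 pairs over 12056 genes). Libraries of 1 clone, whatever the number, had a median r of 0.301. Pairing by number beyond clone was thus not shown. Sample titles and column names give different numbers to the C2ON3 library with LIF and without Dox, and the titles were used. No pair of replicates differed by less than the sampling noise (lowest chi-square per degree of freedom 9.15). Alternatives were DESeq2 1.42.0, other filters, blocks, clone as a term, pooled fits, and leaving out each library. Sequences came from RefSeq tables (GRCm38.p6) and, for words of 50 bases, from the mm9 genome. Python 3.11.15, pandas 2.3.3, numpy 2.4.6 and matplotlib 3.10.9 were used.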

Additional observations from a re-analysis of the deposited data

Results flagged for a closer look

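In groups of 4 libraries, 4 of 105 values tested over 35 members stood apart from the other 3 by Dixon's criterion, where chance gives about 1 in 20. Among Nanog/Otx2 libraries without LIF, Gm9493 had 4676.2 in -LIF +Dox C2ON3-2 (others 5007.4 to 5069.3), Slc11a1 had 31.6 there (others 19.6 to 21.6), Gm10191 had 17.8 in -LIF +Dox C2ON3-1 (others 5.6 to 7.2) and Gm5428 had 841.5 in -LIF -Dox C1ON3-1 (others 101.3 to 128.1). Gm9493, Gm10191 and Gm5428 have shared sequence.

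The effect of Dox differed between cells with and without LIF in 9 members by edgeR's interaction test, as log2 effect with LIF minus without. The differences were -2.15 for Slc11a1, -1.63 for Pnpla3, -1.43 for Slc47a1, -1.42 for Ephx2, -1.40 for 8430410A17Rik, -0.82 for Steap1, -0.74 for Apobec1, -0.71 for Cltb and -0.65 for Stat3.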

How the results depend on the processing

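Leaving out each library gave 43 to 45 members lower on LIF withdrawal without Dox and 37 to 42 with Dox, 3 to 6 higher and 1 to 2 lower with Dox without LIF, 7 to 14 lower and 0 to 3 higher with Dox in LIF, 5 to 10 for the interaction, 0 to 21 lower and 0 to 9 higher in 44iN cells, and 0 to 7 lower and 0 to 5 higher in LT against Tg2a cells. The thresholds gave 48 to 77 members, 350 to 396 LIF-dependent and 13 to 26 kept genes. Dox without LIF lowered 2 members with DESeq2, 2 with the replicate block, 3 with a block by column numbers and 2 with clone as a term, and raised 16, 17 and 11 with the last 3. Dox with LIF raised 5, 4 and 4 members with these 3, and 1 without a filter, with filterByExpr, with only the groups compared, and among members with sequence of their own. Of all genes, Dox with LIF raised 21.3% with the replicate block and 19.8% with clone as a term. The interaction gave 19, 19 and 18 with the blocks and clone, and 5 with all 26 SunTag libraries together. It was called lower in 11.1% of all genes with the replicate block and 9.24% with clone. In 44iN cells DESeq2 gave 1 lower and 1 higher, no filter 5 and 3, 9 libraries together 3 and 1, and the replicate block 19 and 6. In LT cells the block gave 13 lower (22.0% of members, against 17.7% of all genes) and 10 higher (16.9%, against 14.7%). DESeq2 gave 7 higher and no filter 5 higher there. Shares over all genes are not given here for the other fits of 44iN and LT cells, so their counts of members are not read as results. Replicates of 44iN cells (r 0.665 in 2 pairs) and of LT and Tg2a cells (0.092 and 0.239) share only a number. The column-number block, clone as a term and the members with sequence of their own were alternatives chosen after seeing the data. The cause of these moves was not tested. No called member reversed direction when a library was left out. With 2 libraries a group in 44iN cells and no block, even large differences were not called. Nanog differed there by 4.56 ± 0.30 (edgeR adjusted p = 0.09021) and Otx2 by -2.92 ± 0.29 (adjusted p = 0.1563). For members under 100 normalised counts reads were few, and small differences were not detectable.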
